A study of Mus musculus with 16 samples.

Results

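The glucose carrier gene Slc2a1 and 9 genes for enzymes of glycolysis (Hk1, Hk2, Gpi1, Pfkl, Aldoa, Pgk1, Eno1, Pkm and Ldha) were taken by their symbols from a deposited table of read counts. These are 10 of the 39179 genes in the table, and all 10 were among the 15021 genes with enough reads to be tested. The libraries were poly(A) RNA of splenic B cells from NOD.LT mice, which belong to the non-obese diabetic line used to study autoimmune diabetes, all 15 weeks old and given 1 of 4 diets for the last 5 weeks. The control diet is labelled NP, where the treatment text of the labels has the name Gordons. The labels do not spell out the other names. From general knowledge of these diets, HAMS is high-amylose maize starch, which escapes digestion in the small intestine, and in HAMSA and HAMSB the starch carries acetate and butyrate. There were 4 libraries for each diet, written as the diet with the number its title carries, although the labels also speak of triplicates. The cells were obtained by magnetic removal of other spleen cells, so RNA of cells that escaped removal was also sequenced. The labels do not tie libraries to animals, so p-values measure only the spread between these libraries.

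Glycolysis splits glucose into pyruvate in the cytosol. Slc2a1 encodes the carrier GLUT1, which lets glucose enter the cell, hexokinases trap it as glucose 6-phosphate, and lactate dehydrogenase turns pyruvate into lactate. Resting B cells take up little glucose and raise the carrier and the enzymes when they are activated, and the transcription factors HIF-1 and Myc are known activators of many of these genes.

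In the reported fit Slc2a1 was the single gene of the 10 that passed a test between diets. It rose 1.76-fold from a mean of 43.3 ± 5.31 CPM (counts scaled to library size; SD, n = 4) on NP to 76.2 ± 8.16 (SD, n = 4) on HAMS, and it fell again to 45.6 ± 1.70 (SD, n = 4) on HAMSB. No glycolysis enzyme passed the test in any of the 6 comparisons of 2 diets. Pgk1, Eno1 and Ldha were 1.38-fold to 1.60-fold higher in mean CPM on HAMS and HAMSA than on NP without passing. CPM here are scaled by TMM, a correction for differences in library composition, and tests are the quasi-likelihood test of edgeR, with p-values adjusted by Benjamini-Hochberg over all 15021 genes. With DESeq2, another test, Pgk1 (adjusted p of 0.0341) and Ldha (0.0496) passed on HAMS against NP. Of all genes 658 rose and 606 fell there with DESeq2.

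**Figure D1:**
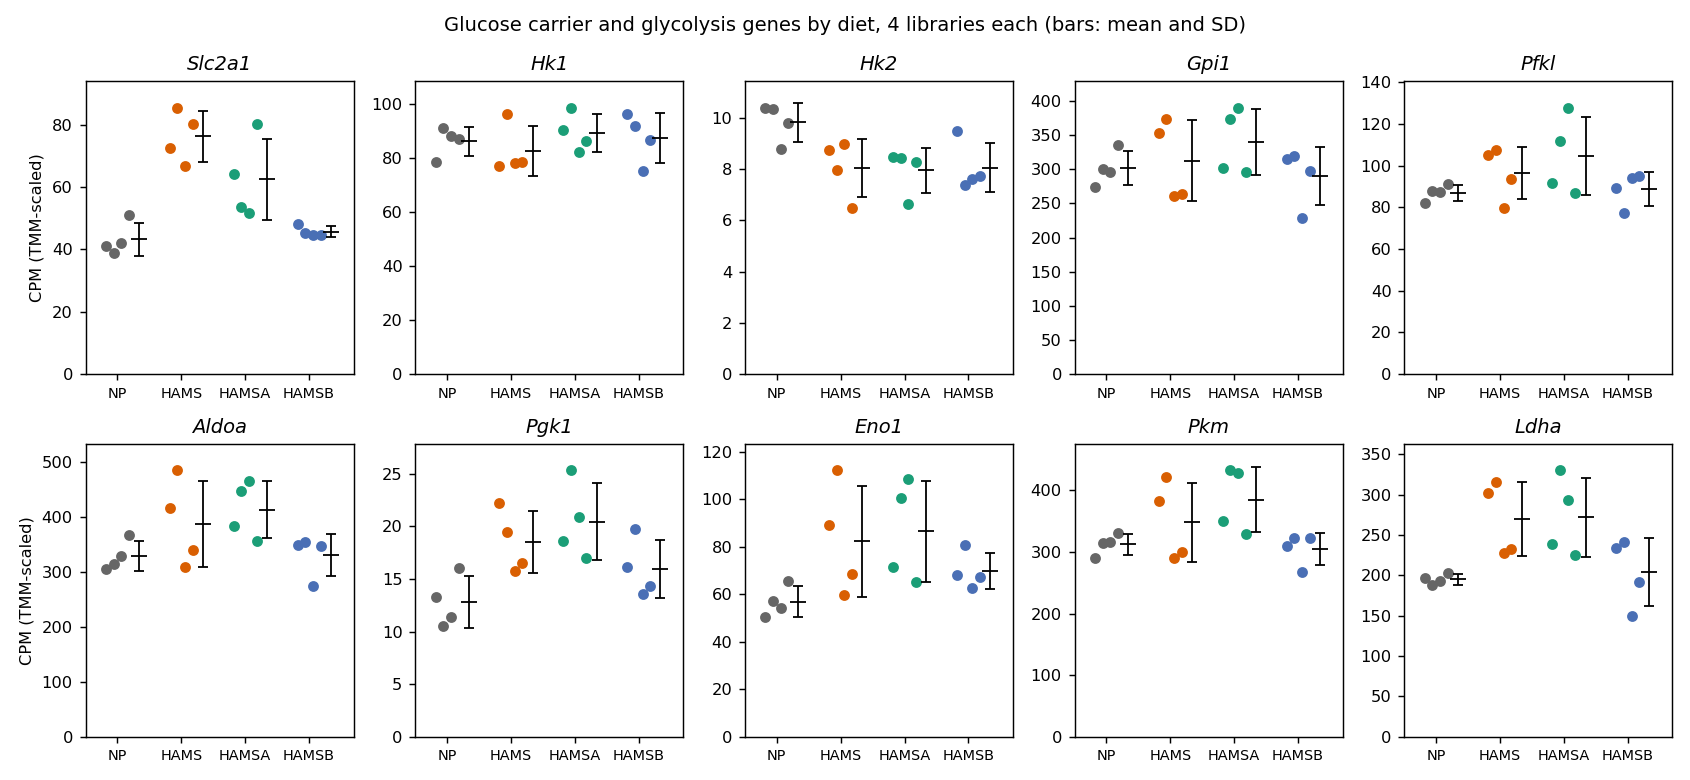
CPM (vertical axes, from 0) of the 10 genes in the 4 libraries of each diet, in label order, with the mean and SD beside them. All 4 HAMS points of Slc2a1, from 66.9 to 85.4, lie above all NP points, from 38.9 to 51.0, and all HAMSB points, from 44.5 to 48.1.

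The libraries held 15053965 to 46206200 counts, and 3 of the 4 HAMSA libraries (2, 3 and 6) were the shallowest, with at most 17453528. Reads outside annotated exons made up 9.76% to 12.1% of the reads in HAMSA, 11.2% to 16.4% in HAMS, 12.6% to 16.9% in HAMSB and 13.95% to 15.5% in NP, so HAMSA lay below NP in every library. Markers of B cells summed to 12971 to 16591 CPM over all libraries, with none of the 10 markers at 0. Red cell markers (12, of which 11 had enough reads to be tested) summed to 579 to 6496 CPM in HAMSA and to 40.6 to 130 in HAMS, with 87.4 to 1499 in NP and 56.2 to 1596 in HAMSB.

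Bases before the transcription start of 3 of the genes are printed, for Slc2a1 because it passed the test. Pgk1 and Ldha were added as textbook targets of HIF-1, whose binding sites can hold the letters ACGTG. No other HIF-1 word was searched, so a gene without ACGTG may still hold a site. Myc and its partner Max bind CACGTG. The stretches are from RefSeq on GRCm38.p6, on the plus strand, 5′ to 3′, and capitals mark ACGTG on either strand. The Slc2a1 stretch (chr4:119108495-119108714) leaves out the last 30 bases before the RefSeq start. GENCODE M21 begins the first exon at 119108711, so the last 4 printed bases lie inside it, and the marked ACGTG reaches into it. The Ldha stretch (chr7:46845554-46845803) lies inside the annotated gene and in none of its exons, and the Pgk1 stretch (chrX:106186850-106187099) lies directly before the gene.
Slc2a1: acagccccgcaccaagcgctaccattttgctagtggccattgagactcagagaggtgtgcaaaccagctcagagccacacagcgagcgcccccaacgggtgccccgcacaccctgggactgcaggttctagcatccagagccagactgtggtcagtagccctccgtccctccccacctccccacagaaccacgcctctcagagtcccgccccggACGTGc
Pgk1: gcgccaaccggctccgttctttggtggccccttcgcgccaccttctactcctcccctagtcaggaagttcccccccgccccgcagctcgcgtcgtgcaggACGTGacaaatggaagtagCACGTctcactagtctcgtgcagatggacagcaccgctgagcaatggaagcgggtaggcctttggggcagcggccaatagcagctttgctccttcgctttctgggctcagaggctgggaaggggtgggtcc
Ldha: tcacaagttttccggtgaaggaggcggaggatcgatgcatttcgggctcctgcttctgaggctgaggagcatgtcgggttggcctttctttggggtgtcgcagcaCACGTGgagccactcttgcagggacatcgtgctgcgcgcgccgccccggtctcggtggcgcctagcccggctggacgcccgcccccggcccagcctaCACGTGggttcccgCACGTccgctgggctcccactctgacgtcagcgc

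In the 250 bases before the start, ACGTG occurred once in Slc2a1, 36 bases before the start, and 2 times in Pgk1, at 150 and 131 bases. Ldha held 5 matches at 1 of its 2 starts, of which 4 came from CACGTG, a word that reads the same on both strands and counts once on each. Over all starts, 6 of the 10 genes (Slc2a1, Hk2, Aldoa, Pgk1, Pkm and Ldha) had ACGTG. It occurred in 18.49% of genes over all their starts and in 16.57% of the 32851 RefSeq windows of this length. Genes with several starts, among them Aldoa, Pkm and Ldha, had more chances of a match. CACGTG occurred in Ldha alone of the 10, in 6.86% of genes and in 6.021% of all windows. A match is a description of the letters in this window and was not tied to binding here.

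Slc2a1 lies on chromosome 4 at 119108711 to 119137983, plus strand (GRCm38). Its CPM in NP libraries 1, 3, 4 and 5 were 41.2, 38.9, 42.0 and 51.0. In HAMS libraries 1, 4, 5 and 6 they were 72.6, 85.4, 66.9 and 80.02. Every HAMS library was above every NP library. In HAMSA libraries 1, 2, 3 and 6 the values were 64.1, 53.5, 51.8 and 80.2. In HAMSB libraries 1, 2, 5 and 6 they were 48.1, 45.3, 44.5 and 44.7. HAMSA overlapped HAMS and lay above NP, by a small margin at its lowest library, and HAMSB lay inside the NP range.

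The order of the diets by mean Slc2a1 was HAMS, HAMSA, HAMSB and NP. The rise on HAMS against NP was 0.82 ± 0.13 on the log2 scale (SE), with an adjusted p of 0.00268 in edgeR's quasi-likelihood test. In that comparison 4.33% of all tested genes passed, and 2.27% passed with a higher value on HAMS. Slc2a1 fell by 0.74 ± 0.13 (log2, SE) on HAMSB against HAMS, with an adjusted p of 0.00646 in the same test, where 1.68% of all tested genes passed and 1.24% passed with a lower value. Both comparisons use the same HAMS libraries and are therefore not independent. A test for any difference among the 4 diets gave Slc2a1 an adjusted p of 0.00391 (edgeR, Benjamini-Hochberg), and no other gene of the 10 passed it, where 3.78% of all tested genes did.

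No pair of neighbours in the order passed edgeR's test. HAMSA was lower than HAMS by a log2 value of −0.29 ± 0.13 (SE; adjusted p of 0.410, edgeR). HAMSA was higher than HAMSB by 0.45 ± 0.13 (log2, SE; adjusted p of 0.112, edgeR), with no overlap between the libraries, and DESeq2 called it, with an adjusted p of 0.0344. Its difference from NP was 0.53 ± 0.13 (log2, SE), which just missed the threshold with an adjusted p of 0.0528 (edgeR), again with no overlap. HAMSB against NP gave 0.08 ± 0.13 (log2, SE), with a 95% interval from −0.20 to 0.36.

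Slc2a1 on HAMS against NP kept its call without each of the 8 libraries of these diets in turn, at log2 values between 0.75 and 0.90, and Slc2a1 on HAMSB against HAMS did so between −0.80 and −0.68. With libraries numbered 5 and 6 alone, where NP has 1 library and HAMS and HAMSB have 2 each, the values were 0.52 (adjusted p of 0.201, edgeR) and −0.72 (adjusted p of 0.0679, edgeR), and neither passed. The summed red cell markers had their lowest median on HAMS, at 108 CPM. Macrophage and monocyte markers (10 of 10 measured) summed to 139 to 270 CPM on HAMS and to 249 to 548 on NP. Of the 10, 7 passed with a lower value on HAMS, where 309 of all 15021 tested genes did. Among the 7, the 4 with the smallest p were C1qc (log2 value of −2.79, adjusted p of 0.00562), Vcam1 (−3.32, 0.00623), Spic (−0.74, 0.00668) and C1qb (−2.44, 0.0175), all in edgeR's test. Cd22 of the B cell list (−0.46, adjusted p of 0.0181, edgeR) and Tk1 of the proliferation list (−0.55, adjusted p of 0.0491, edgeR) also fell on HAMS, calls that held in 4 and 2 of the 8 fits without a library. Their lists did not fall as a whole. Of the 11 proliferation genes 8 had higher values on HAMS than on NP and 3 lower, with a median log2 difference of 0.09. Of the 10 B cell markers 4 were higher and 6 lower, with a median of −0.03. Platelet markers (8 of 8) summed to 376 to 785 CPM on HAMS and 260 to 435 on NP, and none passed. Of the red cell, macrophage and platelet lists, only the red cell list had markers at 0 in any library, at most 1. Their part in the Slc2a1 values was not tested. In bulk RNA a change in the share of cells that use a gene and a change of RNA per cell cannot be told apart.

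**Figure D2:**
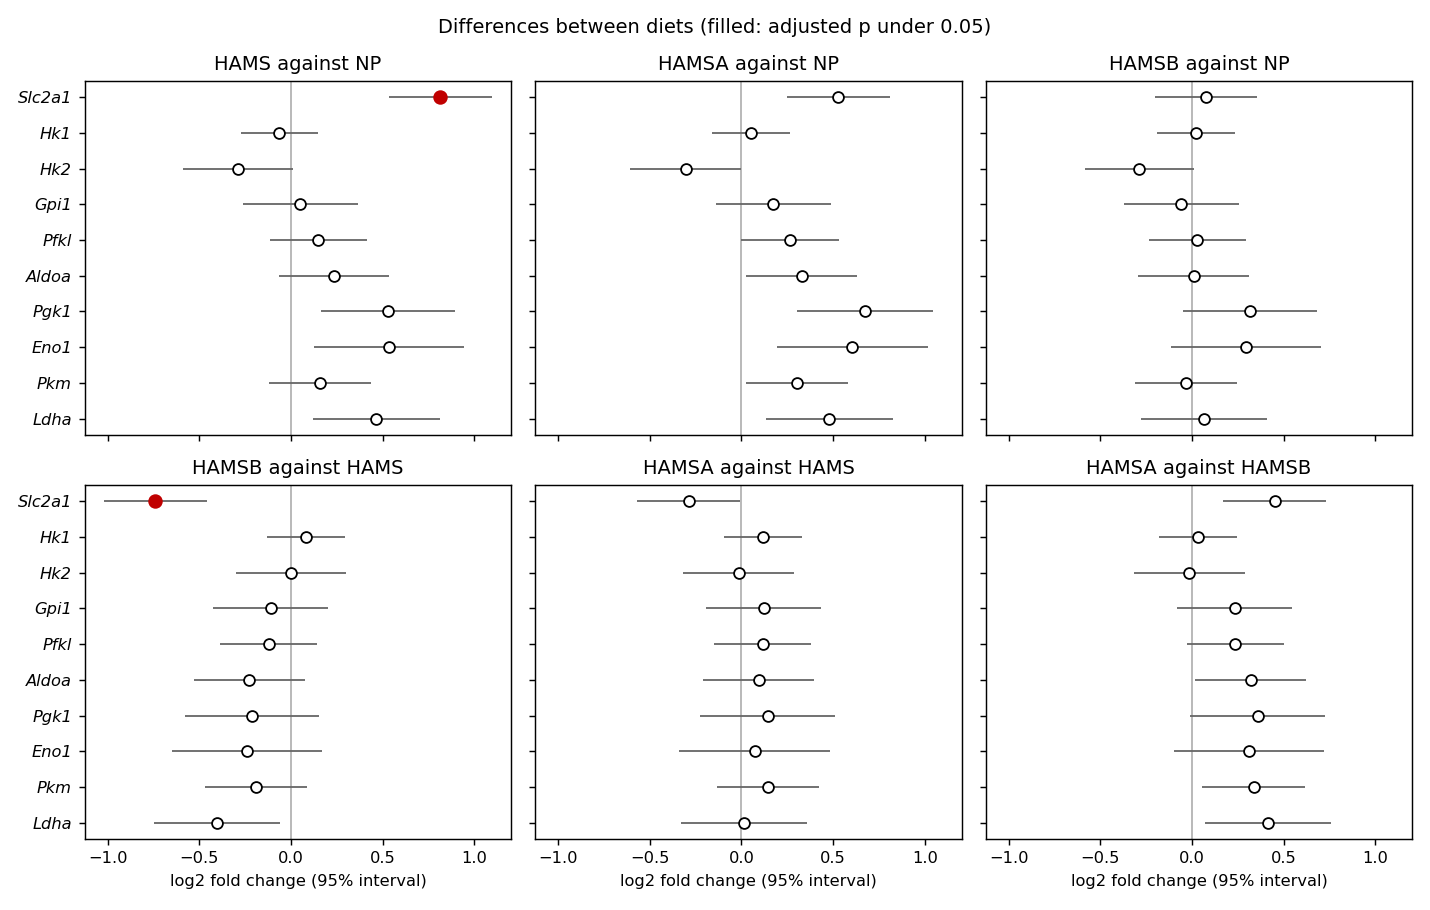
Log2 fold change (horizontal axes) of each gene in the 6 comparisons, with its 95% interval. The intervals use the 12 residual degrees of freedom and not those of the test. An interval can therefore reach 0 at an unadjusted p under 0.05, as for Pfkl on HAMSA against NP. Filled points passed the test, which only Slc2a1 did, at 0.82 on HAMS against NP and −0.74 on HAMSB against HAMS.

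The hexokinases catalyse the first step. Hk1, the widely expressed form, had 78.6, 91.3, 88.2 and 86.9 CPM in NP libraries 1, 3, 4 and 5, and its means ranged from 82.6 on HAMS to 89.4 on HAMSA. Diet means of Hk1 differed by a factor of 1.08, the least of the 10 genes, and all diets overlapped. Hk2, the form that activated lymphocytes raise, was low throughout.

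Hk2 had 10.4, 10.3, 8.77 and 9.82 CPM in NP libraries 1, 3, 4 and 5. Its values were 8.76, 7.99, 8.97 and 6.49 in HAMS libraries 1, 4, 5 and 6. They were 8.48, 8.44, 6.66 and 8.26 in HAMSA libraries 1, 2, 3 and 6, and 9.49, 7.40, 7.63 and 7.73 in HAMSB libraries 1, 2, 5 and 6. Hk2 was the one gene of the 10 with its highest mean on NP. The log2 differences from NP were −0.29 on HAMS, −0.30 on HAMSA and −0.29 on HAMSB, each with an SE of 0.14 and with adjusted p of 0.266, 0.190 and 0.740 (edgeR). These comparisons share the NP libraries, and HAMSA alone had no library that overlapped NP.

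Gpi1, Pfkl and Aldoa carry out the next steps, the isomerase, the phosphofructokinase of liver type and aldolase A. Gpi1 ranged over all libraries from 228 CPM in HAMSB 5 to 390 in HAMSA 3, Pfkl from 77.1 in HAMSB 2 to 128 in HAMSA 3, and Aldoa from 274 in HAMSB 5 to 485 in HAMS 4. The libraries of 1 diet spread as widely as the diets did. Aldoa in HAMS libraries 1 and 4 was 416 and 485 CPM, and in HAMS libraries 5 and 6 it was 309 and 340. The largest difference among these genes was Aldoa on HAMSA against NP, at 0.33 ± 0.14 on the log2 scale (SE; adjusted p of 0.163, edgeR).

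Pgk1 and Pkm encode the enzymes that make ATP in the later steps of the pathway, and Eno1 encodes the enolase between them. Pgk1 had 13.3, 10.5, 11.4 and 16.04 CPM in NP libraries 1, 3, 4 and 5. It had 22.2, 19.5, 15.8 and 16.5 in HAMS libraries 1, 4, 5 and 6, and 18.6, 25.3, 20.9 and 16.97 in HAMSA libraries 1, 2, 3 and 6. HAMSA lay above NP in every library, and HAMS overlapped NP through HAMS 5 alone. HAMSB libraries 1, 2, 5 and 6 had 16.2, 19.7, 13.6 and 14.3 CPM, between these diets. The log2 difference from NP was 0.67 ± 0.17 on HAMSA (SE; adjusted p of 0.0581, edgeR) and 0.53 ± 0.17 on HAMS (SE; adjusted p of 0.0931, edgeR), so neither passed.

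Eno1 had 50.5, 57.2, 54.4 and 65.6 CPM in NP libraries 1, 3, 4 and 5. It had 89.0, 112, 59.8 and 68.5 in HAMS libraries 1, 4, 5 and 6, and 71.7, 101, 109 and 65.4 in HAMSA libraries 1, 2, 3 and 6. HAMS libraries 1 and 4 and HAMSA libraries 2 and 3 were the highest, and the others came close to NP 5. The log2 difference from NP was 0.53 ± 0.19 on HAMS (SE; adjusted p of 0.128, edgeR) and 0.60 ± 0.19 on HAMSA (SE; adjusted p of 0.0865, edgeR). HAMSB libraries had 62.7 to 80.7 CPM and overlapped all other diets. Pkm ranged from 268 CPM in HAMSB 5 to 432 in HAMSA 2, with its largest log2 difference between HAMSA and HAMSB, at 0.34 ± 0.13 (SE; adjusted p of 0.196, edgeR).

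Ldha, which encodes the A subunit of lactate dehydrogenase, had 197, 188, 192 and 203 CPM in NP libraries 1, 3, 4 and 5, the narrowest spread of any diet. It had 302, 316, 227 and 233 in HAMS libraries 1, 4, 5 and 6. HAMSA libraries 1, 2, 3 and 6 had 239, 330, 293 and 225. All HAMS and HAMSA libraries were above all NP libraries, while HAMSB libraries 1, 2, 5 and 6, with 233, 242, 150 and 192 CPM, reached above and below NP. The log2 difference from NP was 0.47 ± 0.16 on HAMS (SE; adjusted p of 0.115, edgeR) and 0.48 ± 0.16 on HAMSA (SE; adjusted p of 0.0982, edgeR). Against HAMS, Ldha on HAMSB differed by −0.40 ± 0.16 (log2, SE; adjusted p of 0.260, edgeR).

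The differences of Pgk1, Eno1 and Ldha from NP had larger values in the libraries numbered 1 to 4. HAMS has 2 of these libraries, and NP and HAMSA have 3 each. In these alone, HAMS against NP gave 0.83 for Pgk1 (adjusted p of 0.0213, edgeR), 0.89 for Eno1 (adjusted p of 0.0163, edgeR) and 0.68 for Ldha (adjusted p of 0.0152, edgeR), on the log2 scale. In the libraries numbered 5 and 6, with 2 HAMS libraries and 1 on NP, the log2 values were −0.000173, −0.04 and 0.17, and none passed. On HAMSA against NP these genes gave 0.89, 0.80 and 0.59 in numbers 1 to 4 and 0.08, −0.00939 and 0.14 in numbers 5 and 6, where 1 library (HAMSA 6) stands against 1 (NP 5). Over all genes 8.14% passed on HAMS against NP in numbers 1 to 4 and 0.241% in numbers 5 and 6, and on HAMSA against NP 17.6% and 0.202%. Reads outside exons differed between the subsets too, at 13.04% and 11.2% in HAMS 1 and 4 and 16.4% and 14.8% in HAMS 5 and 6. The labels do not say what the numbers stand for, and the difference between the subsets was not tested.

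Over the 10 genes, values were higher on HAMS than on NP for 8, with a median log2 difference of 0.20 against 0.01 over all tested genes, and 2 of the 10 (Slc2a1 and Ldha) had no overlap between these diets, where 12.6% of all genes had none. On HAMSA against NP 9 were higher, with a median of 0.31, none passed where 1.41% of all genes did, and 4 had no overlap where 16.4% of all genes had none. At an unadjusted p under 0.05 in edgeR's test, 8 of the 10 differed between HAMSA and NP, where 25.1% of all genes did. DESeq2 called 4 of the 10 there and 8.62% of all genes. Marker lists also differed between HAMSA and NP. Neutrophil markers summed to 76.6 to 316 CPM on HAMSA and 8.69 to 61.9 on NP, and T cell markers to 136 to 275 and 88.5 to 126. NK cell markers summed to 13.6 to 34.8 and 11.6 to 18.1, and proliferation genes to 275 to 639 and 227 to 306. An unadjusted p under 0.05 was reached by 9 of 9 neutrophil markers (at most 1 at 0 in an NP library), 9 of 10 T cell markers, 4 of 6 NK cell markers, 9 of 11 proliferation genes and 7 of 11 red cell markers. Of these Elane (log2 value of 3.72, adjusted p of 0.049954), Ncr1 (3.35, 0.0477) and Lck (0.55, 0.0477) passed edgeR's test, as did Cd22, the B cell coreceptor, with a lower value (−0.47, 0.0387). Elane and Ncr1 had few reads, with mean CPM of 0.57 and 2.10 on HAMSA and 0.04 and 0.21 on NP. Each of these 4 calls was lost without any 1 of NP 3, NP 4, NP 5, HAMSA 1 and HAMSA 2, with adjusted p up to 0.171 (Elane without NP 4, edgeR). The part of these markers in the HAMSA values of the 10 genes was not tested.

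On HAMSB against NP 7 were higher, with a median of 0.02, none passed (0.0732% of all genes) and none was free of overlap (5.27% of all genes). None of the 10 had an unadjusted p under 0.05 there, where 6.89% of all genes did, and neither DESeq2 (0.826% of all genes) nor limma voom (0.14%) called any of them. C1qc was the one marker gene that passed, with a log2 value of −2.93 (adjusted p of 0.0409, edgeR), a call that held in 2 of the 8 fits without a library.

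Among the starch diets, HAMSB had lower values than HAMS for 8 of the 10, with a median log2 difference of −0.20, and 1 had no overlap, where 7.30% of all genes had none. HAMSA had higher values than HAMSB for 9, with a median of 0.32. None of these passed where 0.779% of all genes did, 4 had an unadjusted p under 0.05 in edgeR's test (19.4% of all genes), DESeq2 called 1 (Slc2a1; 3.99% of all genes), and 3 (Slc2a1, Aldoa and Pkm) had no overlap where 8.81% of all genes had none. HAMSA against HAMS gave a median of 0.10, with none of the 10 free of overlap (4.01% of all genes). Not a single gene of the 15021 passed that comparison in edgeR's test (0.00%), where 1 of the 10 had an unadjusted p under 0.05 (11.7% of all genes) and DESeq2 called 67 genes higher and 36 lower, none of the 10. The comparisons share libraries, so their counts are given side by side only.

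Per exonic length, Aldoa was the most abundant of the 10, at 126 ± 20.7 RPKM (reads scaled to exonic length and library size; SD, n = 16 libraries). Ldha at 71.1, Pkm at 67.6 and Gpi1 at 48.3 RPKM came next. Slc2a1 at 16.2, Pfkl at 14.1, Eno1 at 13.7, Hk1 at 10.1 and Pgk1 at 7.54 RPKM were several-fold lower, and Hk2 was the lowest at 1.42. Reads that map to several places were not counted, and this lowers some levels more than others. Of all 50-base words in the longest protein-coding transcript, 72.19% for Eno1 and 67.96% for Pgk1 also occur in transcripts of other genes, chiefly Eno1b and Pgk1-rs7, against 34.41% for Pkm, 25.26% for Gpi1, 16.65% for Ldha and 13.53% for Aldoa. The other 4 genes share under 3%. The place of Eno1 and Pgk1 in the order of levels is therefore uncertain. The exonic length joins the exons of all transcripts of a gene. It was 8532 bases for Hk1 and 6675 for Pfkl, against 4278 and 3730 in the longest protein-coding transcript. For Slc2a1 it was 3506 against 3260, for Pkm 5001 against 2432 and for Ldha 3310 against 1815. The order of genes with close levels therefore also depends on the length used.

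Gpi1, Aldoa, Pgk1, Eno1, Pkm and Ldha were grouped after their values were seen, because they varied together across libraries. Across the 16 libraries the 15 pairs of these 6 enzymes had Pearson correlations of log2 CPM between 0.64 and 0.97, and between 0.67 and 0.97 within diets. Slc2a1 with the same enzymes gave 0.17 to 0.56, and −0.16 to 0.02 within diets. The enzymes left out of the group gave 0.55 to 0.80 for Pfkl, 0.21 to 0.56 for Hk1 and −0.51 to −0.05 for Hk2 with the same 6, and within diets 0.31 to 0.73, 0.30 to 0.65 and −0.20 to 0.13. All points share library depth and composition, so these are descriptions. The summed CPM of the 6 enzymes was 1131, 1185, 1199 and 1319 in NP libraries 1, 3, 4 and 5 and 1566, 1728, 1164 and 1221 in HAMS libraries 1, 4, 5 and 6. It was 1366, 1710, 1708 and 1290 in HAMSA libraries 1, 2, 3 and 6, and 1291, 1338, 996 and 1241 in HAMSB libraries 1, 2, 5 and 6. HAMS 4, HAMSA 2 and HAMSA 3 were the highest and HAMSB 5 the lowest.

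The enzyme sum was lower in libraries with more reads outside annotated exons. Across 16 libraries Pearson's r was −0.86 (permutation p of 2e-05, two-sided and the smallest that 100000 resamples can give, 3e-05 after adjustment for 3 relations) and Spearman's rho was −0.86 (the same p). It was −0.78 without HAMSA 2 and HAMSB 5, the libraries farthest from the median share, −0.87 in the 10 libraries numbered 1 to 4, −0.73 in the 6 numbered 5 and 6, and −0.83 within diets. The sum of all 9 enzymes gave an r of −0.86 and a rho of −0.86 (the same p and adjusted p for each). For this sum r was −0.78 without the same libraries, −0.86 in numbers 1 to 4, −0.72 in numbers 5 and 6 and −0.82 within diets. For Slc2a1, r was −0.34 (permutation p of 0.192, adjusted 0.192) and rho −0.49 (permutation p of 0.0542, adjusted 0.0542), with an r of −0.38 without the same libraries, −0.54 in numbers 1 to 4, −0.64 in numbers 5 and 6 and −0.11 within diets. The 6 enzymes were grouped from these same libraries, and how many other genes follow the share as closely was not computed. The permutations moved libraries freely across diets, although diets differ in the share, so these relations are descriptions.

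With that share as a covariate, a setting chosen after seeing the data, the median log2 difference of the 10 genes on HAMSA against NP went from 0.31 to −0.01, and on HAMSA against HAMSB from 0.32 to −0.04. Slc2a1 kept both calls with the covariate, at 0.80 on HAMS against NP (adjusted p of 0.00254, edgeR) and −0.73 on HAMSB against HAMS (adjusted p of 0.00732, edgeR). Ldha on HAMS against NP was smaller with it, at 0.32, yet passed with an adjusted p of 0.0297 in edgeR's test. The share differs between diets, with HAMSA lowest, so a part of the HAMSA values that goes with diet and a part that goes with the share cannot be told apart. Multi-mapping reads also differed, at 14.7% to 17.4% in NP, 16.05% to 20.9% in HAMS, 17.03% to 21.2% in HAMSA and 11.4% to 18.1% in HAMSB. Their share was high in HAMSA 2 (21.2%) and HAMS 4 (20.9%), where the enzyme sum was high, and lowest in HAMSB 5 (11.4%). Its relation to the genes was not tested, and it was not used as a term.

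**Figure D3:**
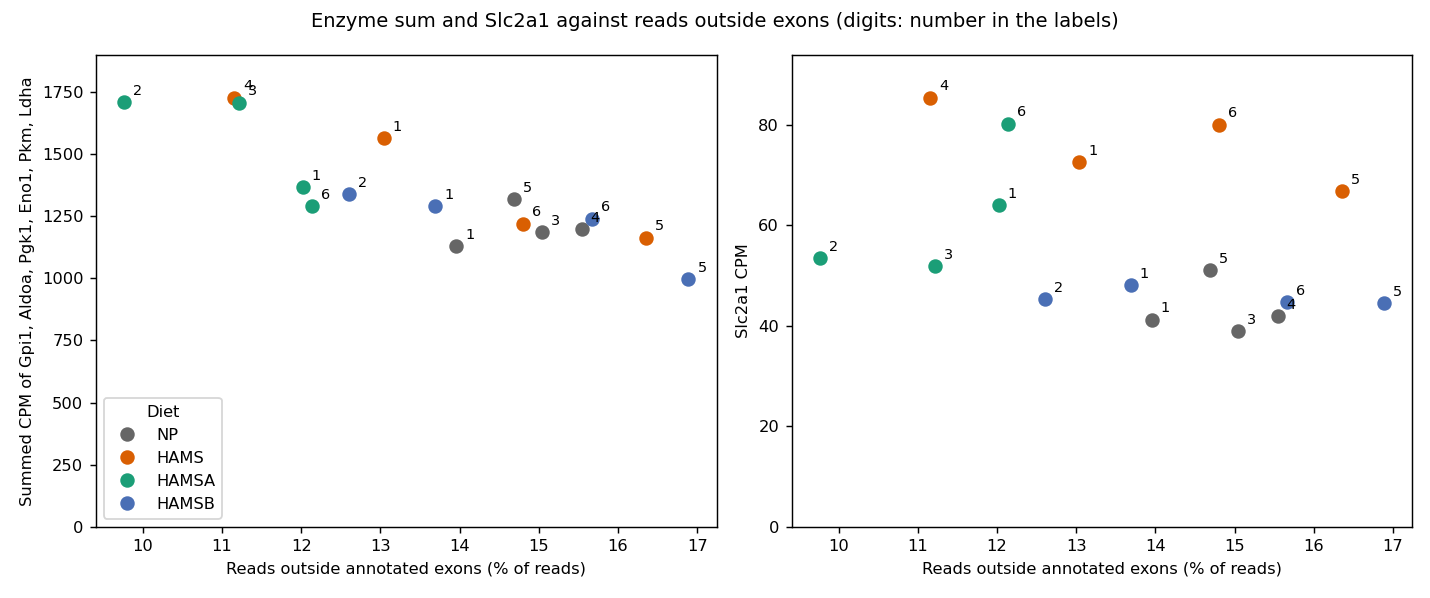
Summed CPM of the 6 enzymes (left) and Slc2a1 CPM (right) against the percentage of reads outside annotated exons in each of the 16 libraries, coloured by diet and marked with the number in the labels. The sum runs from 1710 in HAMSA 2, at 9.76%, to 996 in HAMSB 5, at 16.9%, while the 4 HAMS points of Slc2a1 stay above NP and HAMSB at every share.

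Of 20 further genes for glucose carriers, isoenzymes and other steps 16 were measured, and 1 rose on HAMS against NP, where 2.27% of all genes did. This was Slc2a6, a sugar carrier of intracellular membranes, with 7.49, 7.38, 7.15 and 6.44 CPM in the NP libraries and 11.2, 10.5, 9.44 and 14.9 in HAMS libraries 1, 4, 5 and 6. All HAMS libraries were above NP, the log2 difference was 0.69 ± 0.18 (SE; adjusted p of 0.0446, edgeR), and the call held in 1 of the 8 fits that left out a library, the one without HAMS 5, with adjusted p up to 0.156 (without HAMS 6) in the others. The call held in 7 of 12 other settings, and was lost with library totals (adjusted p of 0.0729, edgeR) and without a filter on low counts (adjusted p of 0.0603, edgeR). Slc2a6 was also above NP in every HAMSA and HAMSB library. These log2 differences were 0.49 ± 0.19 (SE; adjusted p of 0.131, edgeR) and 0.61 ± 0.18 (SE; adjusted p of 0.332, edgeR), without passing. HAMSB differed from HAMS by −0.08 ± 0.18 (log2, SE; adjusted p of 0.885, edgeR). None of 10 measured regulators of glycolytic flux passed, nor any of 8 genes of the pentose phosphate pathway. In single comparisons 0.00% to 4.33% of all genes passed. The smallest p among the regulators was that of Pfkfb2, whose enzyme sets the level of fructose 2,6-bisphosphate, at −0.60 ± 0.16 (log2, SE) on HAMSA against NP, with an adjusted p of 0.0598 (edgeR).

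Of 17 measured genes for pyruvate and lactate fate, Pdk1 alone passed, on HAMS (4.33% of all genes) and HAMSA (1.41%) against NP. Its kinase holds pyruvate dehydrogenase inactive. Pdk1 had 32.9, 35.2, 35.7 and 36.7 CPM in NP libraries, 21.8, 24.4, 31.7 and 24.1 in HAMS libraries, 27.2, 25.2, 26.7 and 24.3 in HAMSA libraries and 31.3, 33.1, 34.6 and 32.4 in HAMSB libraries. HAMS and HAMSA lay below NP in every library. It fell by 0.46 ± 0.10 (log2, SE; adjusted p of 0.0162, edgeR) on HAMS and by 0.44 ± 0.10 (adjusted p of 0.0467, edgeR) on HAMSA against NP. The call on HAMS was lost without NP 3, NP 4 or HAMS 6, with adjusted p up to 0.0608 (without HAMS 6). The call on HAMSA held only without NP 1 or HAMSA 6, with adjusted p up to 0.158 (without NP 4) in the other 6 fits. The call on HAMS held in 10 of 12 other settings, and was lost in a fit of the 2 diets alone (adjusted p of 0.0655, edgeR). The call on HAMSA held in 7 of 12, and was lost with limma voom (adjusted p of 0.0616), without a filter (adjusted p of 0.0591, edgeR) and with the share outside exons as a term, at −0.28 (adjusted p of 0.416, edgeR).

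In the HIF pathway list, 3 of 18 measured genes rose on HAMS against NP (2.27% of all genes), and the same 3 fell on HAMSB against HAMS (1.24% of all genes). They are P4ha1, a collagen prolyl hydroxylase, Ankrd37, an ankyrin repeat gene induced by hypoxia, and Egln2, a prolyl hydroxylase that marks HIF for destruction. The other 15 passed in none of the 6 comparisons, and the median over the list was 0.19 on HAMS against NP and −0.15 on HAMSB against HAMS, where the medians over all genes were 0.01 and 0.01. The list leaves out genes kept in other lists. Among these are Pgk1 and Ldha, which did not pass, and Pdk1, which fell on HAMS against NP (log2 value of −0.46, adjusted p of 0.0162, edgeR).

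P4ha1 had 41.0, 31.2, 30.9 and 26.8 CPM in NP libraries, 48.3, 88.0, 79.3 and 92.8 in HAMS libraries 1, 4, 5 and 6, and 35.6, 30.2, 32.3 and 31.4 in HAMSB libraries. HAMS lay above both, with HAMS 1 nearest to them. It rose by 1.25 ± 0.25 on HAMS against NP (log2, SE; adjusted p of 0.0104, edgeR) and fell by 1.25 ± 0.25 on HAMSB against HAMS (adjusted p of 0.0147, edgeR). The fall was lost without HAMS 4, HAMS 6 or HAMSB 6, with adjusted p up to 0.0584 (without HAMS 4), and in numbers 1 to 4 alone (adjusted p of 0.107, edgeR). In HAMSA libraries 1, 2, 3 and 6, P4ha1 had 53.6, 38.0, 34.02 and 83.7 CPM, and HAMSA 6, the highest, also had the highest Slc2a1 of its diet.

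Ankrd37 had 11.8, 9.70, 8.80 and 11.4 CPM in NP libraries and 16.9, 22.5, 19.7 and 24.8 in HAMS libraries, with 11.5 to 16.7 in HAMSA and 10.96 to 12.3 in HAMSB. It rose by 1.01 ± 0.14 on HAMS (log2, SE; adjusted p of 0.00141, edgeR) and fell by 0.85 ± 0.14 on HAMSB against HAMS (adjusted p of 0.00560, edgeR), and both calls held without each library in turn. In numbers 1 to 4 alone the fall had an adjusted p of 0.105 (edgeR). Egln2 had 203, 177, 193 and 218 CPM in NP libraries and 318, 285, 306 and 320 in HAMS libraries, with 215 to 329 in HAMSA and 121 to 182 in HAMSB. It rose by 0.64 ± 0.14 on HAMS (log2, SE; adjusted p of 0.0183, edgeR), and this call was lost without NP 3, NP 4 or HAMS 6, with adjusted p up to 0.0812 (without NP 3). It fell by 1.03 ± 0.14 on HAMSB against HAMS (adjusted p of 0.00159, edgeR) and was higher on HAMSA than on HAMSB by 0.77 ± 0.14 (adjusted p of 0.0222, edgeR), a call lost without HAMSA 2, HAMSA 3, HAMSB 1 or HAMSB 6, with adjusted p up to 0.0672 (without HAMSB 1). The last call held in 7 of 12 other settings. It was lost in numbers 1 to 4 (adjusted p of 0.0738, edgeR) and in numbers 5 and 6 (adjusted p of 0.258, edgeR), with the share outside exons as a term (adjusted p of 0.0892, edgeR) and in a fit of the 2 diets (adjusted p of 0.189, edgeR). The fall of Egln2 on HAMSB against HAMS held in all 12.

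**Figure D4:**
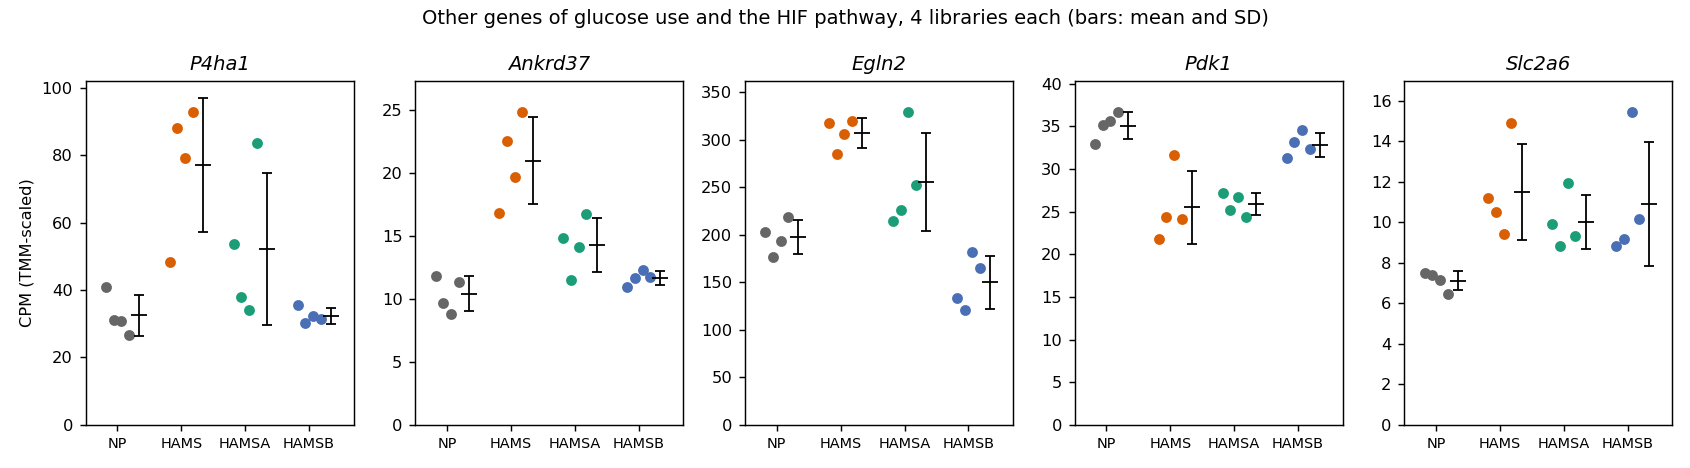
CPM (vertical axes, from 0) of 5 further genes in the 4 libraries of each diet, with the mean and SD beside them. The means of P4ha1, Ankrd37 and Egln2 were highest on HAMS, while the highest single library of Egln2 was HAMSA 3, at 329 CPM. The mean of Pdk1 was lowest on HAMS, at 25.5 CPM, close to 25.9 on HAMSA.

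Of 20 measured genes of Myc, Mondo factors and growth kinases, 3 passed in any comparison. By comparison, 2 passed on HAMSB against HAMS (1.68% of all genes) and 1 on HAMS against NP (4.33%). On HAMSA against HAMSB and on HAMSB against NP 1 passed each (0.779% and 0.0732%). Ddit4, whose product restrains the growth kinase mTORC1, had 281, 269, 254 and 276 CPM in HAMS libraries 1, 4, 5 and 6 and 69.6, 64.0, 46.04 and 48.0 in HAMSB libraries 1, 2, 5 and 6. This was the largest difference of any gene that passed in these pathway lists. It fell by 2.25 ± 0.25 on HAMSB against HAMS (log2, SE; adjusted p of 0.000312, edgeR). Against NP, where libraries had 101 to 215 CPM, HAMSB was lower by a log2 value of −1.48 ± 0.24 (adjusted p of 0.0390, edgeR), a call that held only without NP 3 or HAMSB 1. HAMSA was higher than HAMSB by 1.23 ± 0.24 (adjusted p of 0.0268, edgeR), a call lost without HAMSA 3, HAMSB 1, HAMSB 5 or HAMSB 6. Without HAMSB 5 the adjusted p of these values were 0.129 and 0.109. In numbers 1 to 4 alone Ddit4 gave −1.08 on HAMSB against NP (adjusted p of 0.131, edgeR) and 0.85 on HAMSA against HAMSB (adjusted p of 0.267, edgeR). In fits of the 2 diets alone the adjusted p were 0.146 and 0.161 (edgeR), and with the share outside exons as a term the second value was 1.16 (adjusted p of 0.304, edgeR). These calls held in 9 and 8 of 12 other settings, and the fall on HAMSB against HAMS held in all 12.

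Max, the partner of Myc, rose by 0.32 ± 0.08 on HAMS against NP (log2, SE; adjusted p of 0.0254, edgeR), a call that held only without NP 1, HAMS 5 or HAMS 6, with adjusted p up to 0.0981 (without NP 4) in the others, and in 7 of 12 other settings. With library totals the value of Max was 0.24 (adjusted p of 0.0769, edgeR). Sesn1, which encodes a sestrin, fell by 0.71 ± 0.16 on HAMSB against HAMS (log2, SE; adjusted p of 0.0400, edgeR), and held only without HAMS 4, with adjusted p up to 0.114 (without HAMSB 6) in the others. It held in 8 of 12 other settings, and in numbers 1 to 4 the value was −0.57 (adjusted p of 0.329, edgeR).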

How the data were processed

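Per the submitters' processing notes, reads were handled with STAR, featureCounts of Subread, edgeR and limma. No version was given with them, and neither genome build nor annotation was given in the sources used here. A whole read count per gene and library, not scaled, and a count of unassigned reads by class are what the authors deposited. Multi-mapping reads were left out of the deposited counts. Counts were fitted in R 4.3.3 with edgeR 4.0.16: expression filter with a minimum count of 10, TMM scaling, 1 mean per diet over all 16 libraries (12 residual degrees of freedom, variation between libraries of 22.1%), quasi-likelihood tests, Benjamini-Hochberg adjustment over 15021 genes, threshold 0.05. Other settings used DESeq2 1.42.0, limma 3.58.1 voom, other scalings, filters and library subsets. Of the identifiers, 37607 matched GENCODE M21 (GRCm38), which may not be the authors' annotation and gave coordinates and lengths. From the pathway and marker lists, genes were named that passed in a comparison (up to 4 per list, smallest p), or at most the 2 with the smallest p where none passed. Members, lists and rules were chosen with earlier results of these data known.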

Additional observations from a re-analysis of the deposited data

Results flagged for a closer look

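In 4 of the 40 combinations of a gene and a diet, 1 library stood apart from the other 3 by Dixon's 95% criterion; chance alone gives about 1 in 20 groups. Hk1 in HAMS 4 had 96.5 CPM, where the other HAMS libraries had 77.0 to 78.6. Hk2 in HAMSA 3 had 6.66 CPM, where the other HAMSA libraries had 8.26 to 8.48. Hk2 in HAMSB 1 had 9.49 CPM, where the other HAMSB libraries had 7.40 to 7.73. Aldoa in HAMSB 5 had 274 CPM, where the other HAMSB libraries had 348 to 354. None of these genes passed a test between diets in the reported fit.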

How the results depend on the processing

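Slc2a1 kept both calls in 11 of 12 other settings and in all 8 fits without a library; the exception was libraries numbered 5 and 6 alone, where no gene of the 10 passed on HAMS against NP (0) or HAMSB against HAMS (0). The number of the 10 that passed on HAMS against NP was 3 with DESeq2, 2 with a term for numbers 5 and 6, 5 with numbers 1 to 4 and 2 with reads outside exons as a covariate. On HAMSA against NP, where 0 passed, it was 4 with DESeq2, 4 with the term, 6 with numbers 1 to 4, 1 (Slc2a1) with library totals or a filter of 1 CPM in 4 libraries, and 0 to 2 without a library (Slc2a1 without HAMSA 3, Pgk1 and Eno1 without HAMSA 6). On HAMSA against HAMSB DESeq2 called 1. Directions turned, all without a call, with numbers 5 and 6 alone: Slc2a1 on HAMSA against HAMS to 0.13 and on HAMSB against NP to −0.20; on HAMS against NP Pgk1 to −0.000173 and Eno1 to −0.040; on HAMSA against NP Pfkl to −0.072, Aldoa to −0.050, Eno1 to −0.00939 and Pkm to −0.010. With the covariate, Aldoa and Ldha on HAMSA against HAMSB turned to −0.028 and −0.036, and Aldoa, Pkm and Ldha on HAMSA against NP to −0.035, −0.014 and −0.00696. The cause was not tested. Of the remaining values of the 10 genes, none called in the reported fit, 97 of 760 changed sign and 1 passed, in numbers 1 to 4. The share of all genes that passed moved too: on HAMS against NP from 4.33% to 8.41% with DESeq2, 6.95% with the term, 8.14% in numbers 1 to 4, 0.241% in numbers 5 and 6 and 7.7% with the covariate, and on HAMSA against NP from 1.41% to 8.62%, 10.2%, 17.6%, 0.202% and 0.0599%. In numbers 5 and 6 HAMSA and NP have 1 library each. On HAMSA against NP 84 genes rose and 260 fell of 15021 with library totals, and 107 and 131 of 13016 with the filter of 1 CPM. These counts were 50 and 111 of 15263 without HAMSA 3, and 301 and 288 of 15289 without HAMSA 6.

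With the label number as a replicate block, 1 of the 10 passed on HAMS against NP, 1 on HAMSB against HAMS and 0 in the other comparisons, as without it; over all genes 182 rose and 196 fell on HAMS against NP, and 49 rose and 114 fell on HAMSB against HAMS, against 341 and 309, and 65 and 187, without it. Calls of single pathway genes lost with the block were P4ha1 (adjusted p of 0.0594) and Sesn1 (0.106) on HAMSB against HAMS, Max (0.0642) and Slc2a6 (0.0982) on HAMS against NP, Pdk1 (0.170) on HAMSA against NP, Ddit4 (0.134) and Egln2 (0.0642) on HAMSA against HAMSB and Ddit4 (0.311) on HAMSB against NP (edgeR). The numbers were not treated as pairs, because in no comparison with 3 shared numbers did every pair of deviations correlate above 0.1 (0.37, 0.34 and 0.08 for HAMSB and HAMS), and 3, 4 and 1 of 6 libraries correlated best with their own number. Library totals without TMM moved the median of all genes on HAMS against NP from 0.01 to −0.07, where 225 genes were higher and 573 lower, against 341 and 309; on HAMSB against HAMS they gave 142 and 141 against 65 and 187, and on HAMSA against NP 84 and 260 against 91 and 121. HAMSA libraries were the shallowest, and Hk2 had the fewest counts of the 10, with 100 to 421.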

Other observations

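The genes whose log2 CPM over the 16 libraries were most like the mean of the 10 genes were Csnk2b (r = 0.98), Banf1 (0.98), D17Wsu104e (0.98), Eif3d (0.97) and Psmb6 (0.97), out of 10123 genes compared. Those most like Slc2a1, a search added after its values were seen, were Dnajb1 (r = 0.97), Itprip (0.96), Uspl1 (0.95), Dedd2 (0.95) and Hspa8 (0.95); Dnajb1 and Hspa8 encode heat shock chaperones. These correlations describe the 16 libraries, which share depth and composition, and were given no test.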
